A study of Saccharomyces cerevisiae with 8 samples.

Results

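Aminoacyl-tRNA synthetases attach each amino acid to its transfer RNA, the step that supplies charged tRNA to the ribosome. A budding yeast cell (Saccharomyces cerevisiae) translates in the cytosol and also inside its mitochondria, and most amino acids have a separate nuclear gene for the enzyme of each compartment. For some amino acids a single gene makes both enzymes. The enzymes fall into class I and class II, which have unrelated catalytic folds, and uncharged tRNA is the signal that switches on Gcn2 and, through Gcn4, the general amino acid control of yeast.

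The genes were chosen by name, from a list of 31 synthetase symbols, and all 31 were found among the 5449 genes tested, each with 1 probe set. Of these, 18 encode cytosolic enzymes (among them ALA1, GRS1, HTS1 and VAS1, which also provide the mitochondrial enzyme) and 13 are separate genes for mitochondrial enzymes. By catalytic fold, 15 belong to class I and 16 to class II. None of the 31 probe sets is marked as shared between transcripts (0 of 31). Expression was measured on 8 arrays in 4 groups, a wild type (wt) and strains in which DOT1, SWI4 or ARD1 was deleted, each with 2 arrays labelled as biological replicates. Dot1 methylates histone H3 in its core, Swi4 is the DNA-binding subunit of the G1 transcription factor SBF, and Ard1 is the catalytic subunit of the N-terminal acetyltransferase NatA. All cultures grew in YPD, a rich medium, at 30 C to an OD600 of 0.7. The sources used here do not give the strain background, the mating type or the way the deletions were made. In RNA from whole cultures, fewer cells of a type and less RNA per cell cannot be told apart.

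Values are log2 of the RMA intensities that the authors deposited (RMA corrects background, normalises the arrays by quantiles and summarises probes), and changes are differences of group means on that scale. An adjusted p comes from limma with Benjamini-Hochberg adjustment over the 5449 genes, the threshold is 0.05, and ± gives the standard error (n = 2 arrays per group). "Rose" and "fell" are used only past that threshold. The signal of the deleted gene was lowest in its own strain in each case, at 4.49 and 4.29 for DOT1 (wt 7.49 and 7.92), 4.21 and 4.22 for SWI4 (wt 5.14 and 5.11) and 5.57 and 5.22 for ARD1 (wt 10.41 and 10.83). SWI4 in its own strain was near the lowest gene mean on the arrays, 4.02, so its fall there is understated. One wt array stood apart: wt replicate 2 had a median intensity of 713 where the other 7 arrays had 623 to 644, and its 17 ribosomal RNA control probe sets had a median of 13.60 where the others had 13.83 to 14.14. The control probe sets of SPT15 showed a 3′ minus 5′ difference of 1.67 on that array and 1.78 to 1.92 on the others. Those of ACT1 showed 0.30 on it and 0.35 to 0.43 on the others. For WBP1 dot1 replicate 2 was lowest, at 1.41, with wt replicate 2 at 1.48 and the rest at 1.52 to 1.68. The lowest rRNA median after that of wt replicate 2, 13.83, was also that of dot1 replicate 2. Over all genes, changes against wt had a median of −0.07 for dot1, −0.10 for swi4 and −0.07 for ard1, and the changes below are given without removing that shift. The alpha-cell markers MF(ALPHA)1, MF(ALPHA)2, STE3 and SAG1 had strong signal on all arrays (11.85 to 14.20). All 4 fell in ard1 and 0 of 6 a-cell markers were called there, where 12.2% of all genes were called lower and 6.26% higher. The part of any of these in the results below was not tested.

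Calls among the synthetase genes came from the mitochondrial set and from comparisons with ard1, and the difference between the compartments was not tested. No cytosolic synthetase gene was called in any of the 6 comparisons between strains (0 of 18 in each, although HTS1 passed in ard1 under other settings given with it), while 3 of the 13 mitochondrial genes, MSW1, MSY1 and MSD1, were called higher in ard1 than in at least 2 of the other strains. Of all genes, 6.26% were called higher and 12.2% lower in ard1 against wt, 5.67% and 8.44% against dot1, and 6.2% and 9.07% against swi4. Against wt the shares were 1.12% and 1.34% in dot1 and 5.16% and 7.01% in swi4. Between swi4 and dot1 1.01% were called in either direction. In the fit without a replicate block, none of the 31 genes passed the threshold in dot1 or swi4 against wt. The plot of all members by array shows these 3 genes above the rest in ard1.

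**Figure D1:**
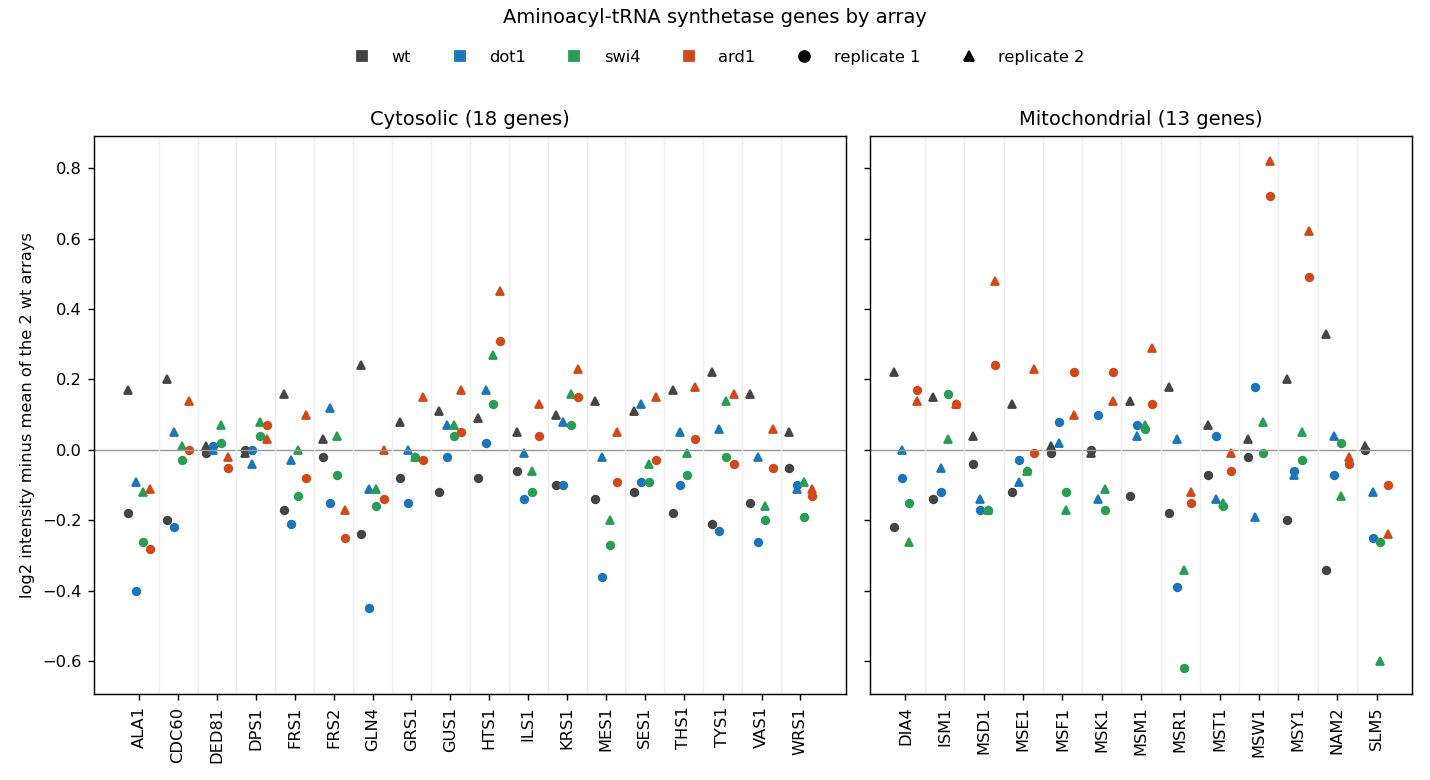
Each point is 1 array, placed at the log2 intensity of a gene minus the mean of its 2 wt arrays (y axis), for the 18 cytosolic (left) and 13 mitochondrial genes (right). Colours mark the strains and shapes the replicate number. The ard1 arrays of MSW1, MSY1 and MSD1 lie above all others, and the range over the 8 arrays has a median of 0.37 for the cytosolic and 0.48 for the mitochondrial genes.

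MSW1 (YDR268W), the mitochondrial tryptophanyl-tRNA synthetase, gave the largest change among the 31 genes. Its log2 intensity was 8.28 and 8.33 on the wt arrays, 8.48 and 8.11 for dot1, 8.29 and 8.38 for swi4, and 9.02 and 9.12 for ard1. Both ard1 arrays lay above all 6 other arrays, and the other 3 strains overlapped. MSW1 rose 1.7-fold in ard1 against wt (0.77 ± 0.13, adjusted p = 0.0124), 1.71-fold against dot1 (0.78 ± 0.13, adjusted p = 0.0158) and 1.66-fold against swi4 (0.74 ± 0.13, adjusted p = 0.0165). These 3 comparisons share the ard1 arrays and are not independent. Against wt the call was lost without ard1 replicate 1 (0.82, adjusted p = 0.0654) or ard1 replicate 2 (0.71, adjusted p = 0.0964) and was kept without either wt array.

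MSY1 (YPL097W), the mitochondrial tyrosyl-tRNA synthetase, belongs with tryptophanyl-tRNA synthetase to the same subclass of class I. It read 7.56 and 7.96 on the wt arrays, 7.70 and 7.69 for dot1, 7.73 and 7.81 for swi4, and 8.25 and 8.38 for ard1. The ard1 arrays again lay above the 6 others, and the distance between the 2 wt arrays was larger than that between the replicates of any other strain. MSY1 rose by 0.56 ± 0.14 against wt (1.47-fold, adjusted p = 0.0365), by 0.62 ± 0.14 against dot1 (adjusted p = 0.0327) and by 0.55 ± 0.14 against swi4 (adjusted p = 0.0438). The call against swi4 was lost with an intensity-dependent, robust variance model (adjusted p = 0.055), and that against wt when only wt and ard1 were fitted (adjusted p = 0.121). Against wt the change was 0.36 without wt replicate 1 (adjusted p = 0.0639) and 0.76 without wt replicate 2 (adjusted p = 0.0138). Without ard1 replicate 1 or ard1 replicate 2 it was 0.62 and 0.50, and the call was lost (adjusted p = 0.118 and 0.204).

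MSD1 (YPL104W), the mitochondrial aspartyl-tRNA synthetase and a class II enzyme, read 7.77 and 7.85 on the wt arrays, 7.64 and 7.67 for dot1, 7.64 and 7.64 for swi4, and 8.05 and 8.29 for ard1. The ard1 arrays lay above the rest, with wt between them and the other mutants. MSD1 was higher in ard1 than in dot1 (0.52 ± 0.11, 1.43-fold, adjusted p = 0.0245) and than in swi4 (0.53 ± 0.11, adjusted p = 0.0216). The call against dot1 was lost when only these groups were fitted (adjusted p = 0.0573). Against wt its change was 0.36 ± 0.11 and did not pass (adjusted p = 0.0597). It passed against wt when each array was centred on its median (0.43, adjusted p = 0.0313) or the arrays were quantile normalised (0.43, adjusted p = 0.0278). Of the calls of MSW1, MSY1 and MSD1 against dot1 and swi4, those of MSW1 against dot1 without dot1 replicate 1 (0.97, adjusted p = 0.0186) or replicate 2 (0.59, adjusted p = 0.0369) were kept when 1 array was left out. All others were lost with any 1 of the 4 arrays removed, at unchanged sign, with changes of 0.56 to 0.68 and 0.49 to 0.61 for MSY1 and of 0.40 to 0.64 and 0.41 to 0.65 for MSD1.

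The cytosolic enzymes for the same 3 amino acids did not pass in ard1. WRS1, the cytosolic tryptophanyl-tRNA synthetase, read 12.08 and 12.18 in wt and 12.00 and 12.02 in ard1, a change of −0.12 with a 95% interval of −0.33 to 0.09. TYS1, for tyrosine, read 12.57 and 13.00 in wt and 12.74 and 12.94 in ard1 (0.06, interval −0.36 to 0.48). DPS1, for aspartate, read 13.21 and 13.20 in wt and 13.28 and 13.24 in ard1 (0.06, interval −0.14 to 0.25). Each interval ends below the estimate of the mitochondrial counterpart (0.77, 0.56 and 0.36 for tryptophan, tyrosine and aspartate). The intervals of those estimates were 0.45 to 1.09 for MSW1, 0.23 to 0.89 for MSY1 and 0.11 to 0.61 for MSD1. The intervals of the 2 genes therefore overlapped for tyrosine and aspartate, and the difference between the counterparts was not tested.

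**Figure D2:**
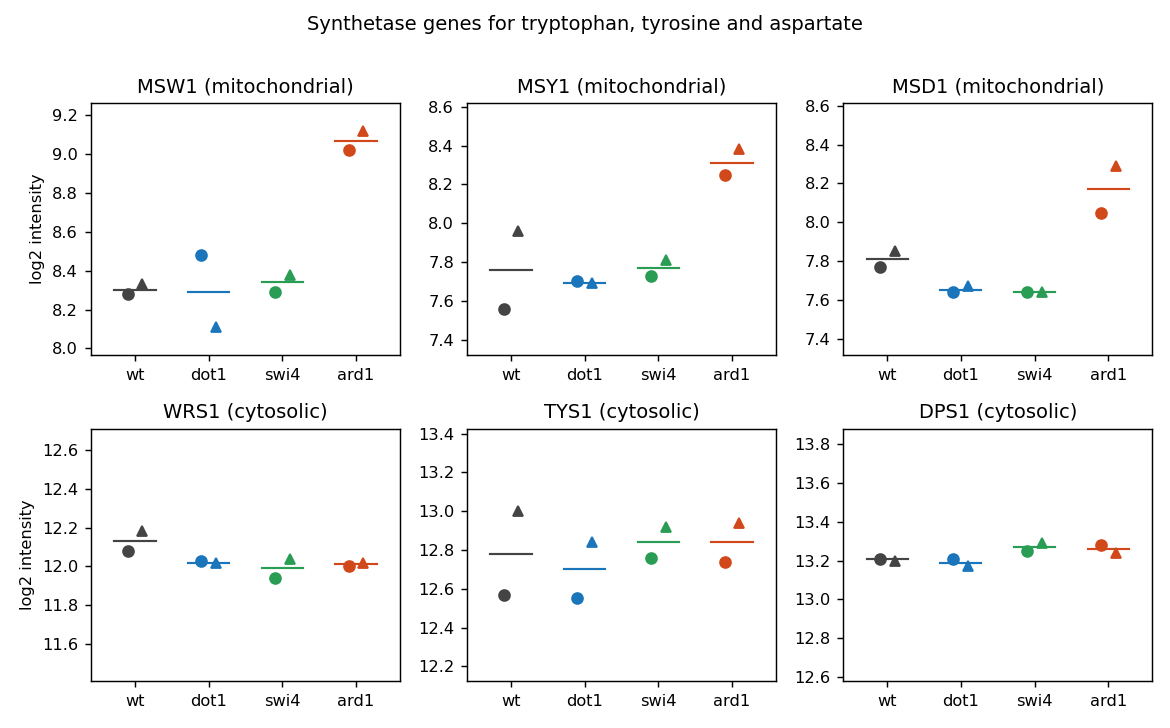
Log2 intensity (y axis, each panel spanning 1.3 units) on the 8 arrays for 3 mitochondrial genes (top) and the cytosolic genes for the same amino acid (bottom). Circles are replicate 1, triangles replicate 2 and lines group means. In the top row both ard1 arrays lie above the other 6, and in the bottom row the ard1 arrays lie among or near those of the other strains.

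Set beside their background, the counts of mitochondrial genes were as follows. In ard1 against wt 2 of 13 were called higher, where 6.26% of all genes were, and 0 were called lower, where 12.2% were. Against dot1 3 of 13 were called higher (5.67% of all genes) and 0 lower (8.44%). Against swi4 3 of 13 were called higher (6.2%) and 0 lower (9.07%). The median change of the 13 genes was 0.15 against wt, 0.17 against dot1 and 0.30 against swi4, beside −0.07, 0.01 and 0.03 over all genes. Positive changes were found in 9, 12 and 13 of the 13 genes, and in 2252, 2836 and 2952 of the 5449 genes. After median centring the median of the 13 genes was 0.23, 0.17 and 0.28 in the same order, so the sign of these medians did not turn on the scaling.

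Both ard1 arrays lay above the other 6 arrays in 5 of 13 mitochondrial genes, where 12.4% of all genes did so, and below them in 0 of 13 (17.7%). Beside MSW1, MSY1 and MSD1 these were MSF1 and MSK1. MSF1, the mitochondrial phenylalanyl-tRNA synthetase, which works as a single chain, read 8.02 and 7.90 in ard1, 7.79 and 7.81 in wt, 7.68 and 7.63 in swi4 and 7.88 and 7.82 in dot1, so its lower ard1 array was only just above dot1 replicate 1. MSK1, the mitochondrial lysyl-tRNA synthetase, whose precursor also helps to import a cytosolic lysine tRNA into yeast mitochondria, read 10.65 and 10.57 in ard1, 10.43 and 10.42 in wt, 10.26 and 10.32 in swi4 and 10.53 and 10.29 in dot1, again with dot1 replicate 1 close below. Against wt they changed by 0.16 ± 0.09 and 0.19 ± 0.11, and neither passed in any of the 3 comparisons (lowest adjusted p = 0.0611 and 0.0853, against swi4).

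The other 8 mitochondrial genes changed by −0.17 (SLM5) to 0.21 (MSM1, the methionyl-tRNA synthetase) in ard1 against wt. NAM2, the leucyl-tRNA synthetase that is also a splicing factor for mitochondrial introns, had the noisiest values of these. It read 6.90 and 7.57 in wt and 7.20 and 7.22 in ard1, so its change of −0.03 has an interval of −0.51 to 0.46. The remaining genes encode the glutamyl (MSE1, 0.11), arginyl (MSR1, −0.14), threonyl (MST1, −0.04), isoleucyl (ISM1, 0.13) and seryl (DIA4, 0.15) enzymes, and SLM5 the asparaginyl enzyme. DIA4 was the dimmest of the 31 genes, between 5.43 and 5.91 on all arrays where the lowest gene mean on the array was 4.02, so a change in it may be understated.

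**Figure D3:**
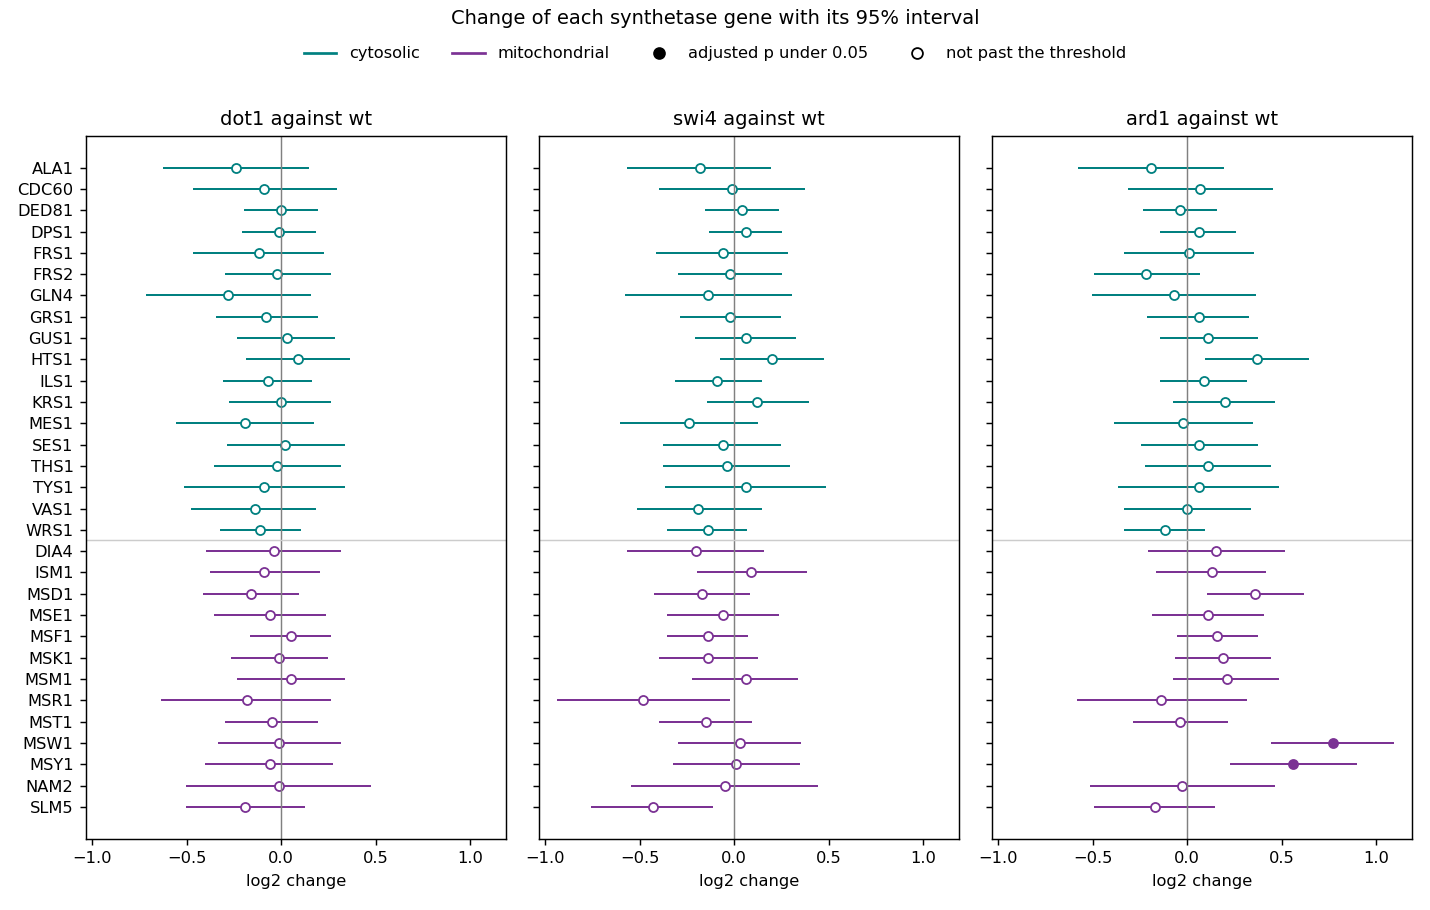
Log2 change against wt (x axis) of each of the 31 genes in dot1, swi4 and ard1, with bars for the 95% interval of the limma estimate. Filled points passed the threshold. MSW1 and MSY1 in ard1, at 0.77 and 0.56, are the filled points, and the intervals of MSD1 and HTS1 in ard1 and of MSR1 and SLM5 in swi4 also leave out 0 without an adjusted p under 0.05.

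Among the cytosolic genes the values stayed close together in all strains. They were also brighter, at 11.33 to 13.75 on the arrays, than the mitochondrial genes at 5.43 to 10.65. Whether bright signal narrowed their ranges and changes was not tested. The range over the 8 arrays had a median of 0.37 over the 18 genes, from 0.12 (DPS1 and DED81) to 0.69 (GLN4, the glutaminyl-tRNA synthetase), beside 0.48 for the mitochondrial genes and 0.62 for all genes. Against wt their median change was −0.07 for dot1, −0.03 for swi4 and 0.06 for ard1, and 0.00, 0.07 and 0.13 after median centring. The sign in dot1 and swi4 therefore depended on the scaling. Taking the 18 intervals against wt together, the bounds reached from −0.71 to 0.36 for dot1 and from −0.60 to 0.48 for swi4. For ard1 they reached from −0.57 to 0.64. The bound of 0.64 was that of HTS1, whose interval of 0.10 to 0.64 left out 0. All other intervals of these genes against wt took in 0. Standard errors ran from 0.08 to 0.18, so small changes in single genes may have gone uncalled. At an unadjusted p under 0.05 limma gave 0, 0 and 1 of the 18 genes against wt.

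That 1 gene was HTS1, which makes both the cytosolic and the mitochondrial histidyl-tRNA synthetase from alternative start sites. It read 12.22 and 12.39 on the wt arrays, 12.32 and 12.47 for dot1, 12.43 and 12.57 for swi4, and 12.61 and 12.75 for ard1. Both ard1 arrays lay above the other 6 arrays, and wt was lowest on average. Its change in ard1 against wt was 0.37 ± 0.11 (1.29-fold, adjusted p = 0.0663). The change passed after median centring (0.45, adjusted p = 0.0253) and quantile normalisation (0.44, adjusted p = 0.0310), and with an intensity-dependent, robust variance model (0.37, adjusted p = 0.0285). With any 1 of the 4 arrays left out it did not pass (adjusted p from 0.0570 to 0.324). The other genes that serve both compartments changed by −0.19 ± 0.16 (ALA1, alanine), 0.06 (GRS1, glycine) and 0.00 (VAS1, valine).

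Phenylalanyl-tRNA synthetase of the cytosol is built from the products of FRS1 and FRS2. FRS2 read 12.37 and 12.42 on the wt arrays, 12.24 and 12.51 for dot1, 12.32 and 12.43 for swi4, and 12.14 and 12.22 for ard1, so the ard1 arrays lay below all others. FRS1 read 12.64 and 12.97 in wt and 12.73 and 12.91 in ard1. The changes in ard1 were −0.22 ± 0.11 for FRS2 and 0.01 for FRS1, neither past the threshold (adjusted p = 0.25 and 0.968). DED81, the asparaginyl enzyme, was the other cytosolic gene with both ard1 arrays below the rest, but the distance was small (13.63 and 13.66 against 13.67 to 13.75). In all, 2 of 18 cytosolic genes lay below and 1 above, where 17.7% and 12.4% of all genes did.

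MES1 and GUS1, the methionyl and glutamyl enzymes, are held in a complex by Arc1 in the yeast cytosol. In ard1 they changed by −0.02 and 0.11, and ARC1 read 12.21 and 12.59 in wt and 12.38 and 12.61 in ard1 (0.10 ± 0.16). In dot1 and swi4 MES1 changed by −0.19 and −0.24, GUS1 by 0.03 and 0.06, and ARC1 by 0.01 and 0.11. None of these passed. ILS1, KRS1 and MES1, the isoleucyl, lysyl and methionyl genes, are known in yeast as genes under the general amino acid control. Their changes in ard1 were 0.09, 0.20 and −0.02. KRS1 read 12.70 and 12.90 in wt and 12.95 and 13.03 in ard1.

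The remaining cytosolic genes, for leucine (CDC60), glutamine (GLN4), serine (SES1) and threonine (THS1), changed by 0.07, −0.07, 0.06 and 0.11 in ard1 against wt. THS1 read 13.33 and 13.68 in wt and 13.54 and 13.69 in ard1, and GLN4 11.54 and 12.02 against 11.64 and 11.78. In both genes the 2 wt arrays enclosed the lower ard1 array, and the strains overlapped.

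For 12 amino acids both a cytosolic and a mitochondrial gene were measured, which makes 13 pairs because FRS1 and FRS2 share MSF1. The mitochondrial gene changed more upward than its cytosolic partner in 8 of 13 pairs in ard1 against wt, in 9 of 13 against dot1 and in 9 of 13 against swi4. The widest gaps against wt were 0.89 for tryptophan (MSW1 and WRS1) and 0.50 for tyrosine (MSY1 and TYS1), followed by 0.38 between MSF1 and FRS2 and 0.30 for aspartate. For asparagine, threonine and leucine the mitochondrial gene had the lower change, by 0.14, 0.15 and 0.10. For glutamate and lysine the partners were within 0.01 of each other. Against dot1 the lysine pair, counted as mitochondrial higher, differed by 0.00, and the isoleucine and asparagine pairs by 0.06. Near ties counted the other way there were FRS1 with MSF1 (−0.02, mitochondrial minus cytosolic) and methionine (−0.01). In dot1 against wt the mitochondrial gene had the higher change in 6 of 13 pairs, and in swi4 against wt in 3 of 13. The pairs share arrays and were not tested as a set.

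**Figure D4:**
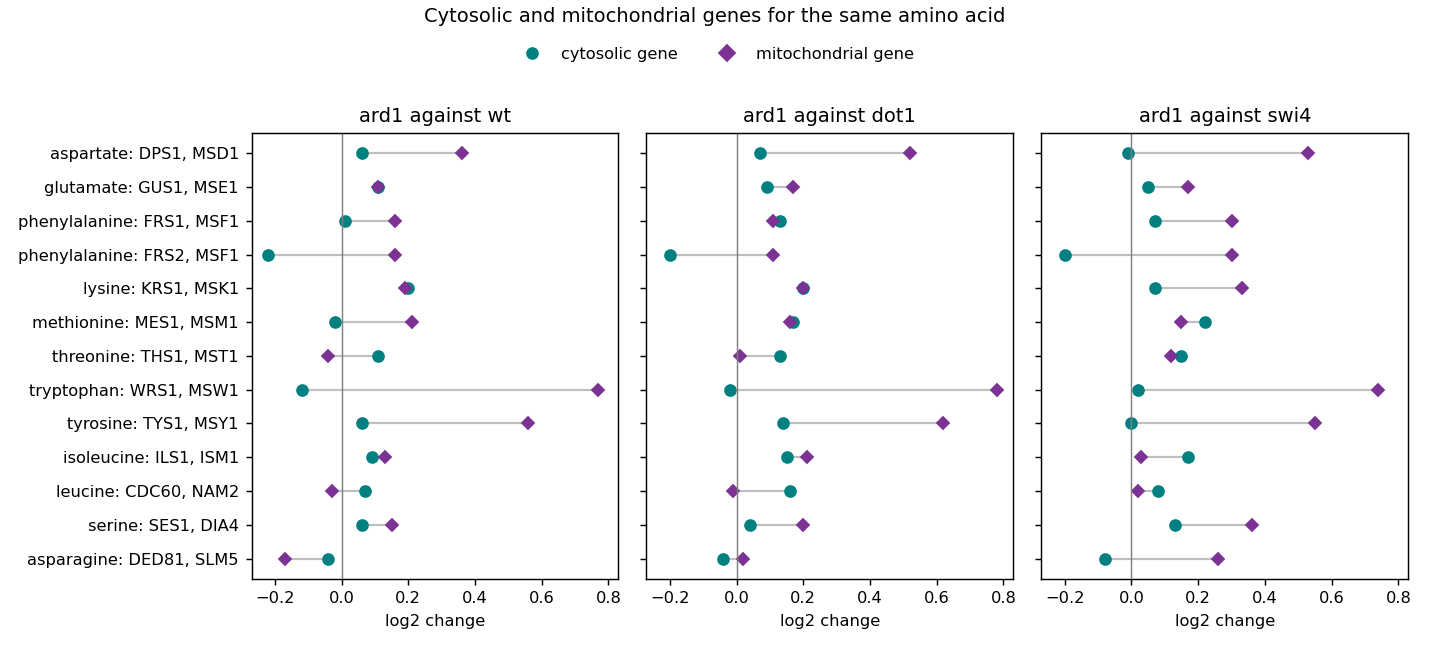
Log2 change (x axis) of the cytosolic gene (circle) and the mitochondrial gene (diamond) for the same amino acid, in ard1 against wt, dot1 and swi4. The lines for tryptophan, tyrosine and aspartate are long and end at the mitochondrial gene in all 3 panels, at 0.77, 0.56 and 0.36 against wt.

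By catalytic fold the 15 class I genes had a median change of 0.07 in ard1 against wt and the 16 class II genes 0.06. Of the class I genes 2 were called, MSW1 and MSY1, and of the class II genes 0, where 6.26% of all genes were called higher. Against dot1 and against swi4, 2 class I genes and 1 class II gene, MSD1, were called, where 5.67% and 6.2% of all genes were called higher.

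MSD1 and MSY1 lie on the same arm of chromosome XVI with 5 protein-coding genes between them in the R64 gene table. Of these 5, FMP30 rose in ard1 (0.69 ± 0.11, adjusted p = 0.0104) and the other 4 changed by 0.02 to 0.22 without passing. The genes on either side of MSW1, CIA1 and CCC2, changed by 0.21 ± 0.14 and 0.36 ± 0.21 without passing.

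In swi4 no synthetase gene was called against wt in the fit without a replicate block (0 of 18 cytosolic and 0 of 13 mitochondrial), where 5.16% of all genes were called higher and 7.01% lower. The lowest values were those of 2 mitochondrial genes. SLM5, the asparaginyl enzyme, read 8.65 and 8.66 on the wt arrays, 8.40 and 8.53 for dot1, 8.39 and 8.05 for swi4, and 8.55 and 8.41 for ard1. Both swi4 arrays lay below the others, if narrowly for replicate 1, and both wt arrays lay above. The change of SLM5 against wt was −0.43 ± 0.13 (1.35-fold lower, adjusted p = 0.0784). MSR1, the arginyl enzyme, read 8.94 and 9.30 in wt and 8.50 and 8.78 in swi4, a change of −0.48 ± 0.19 (adjusted p = 0.14).

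Both swi4 arrays lay below the other 6 in 3 of 13 mitochondrial genes, SLM5, MSF1 and MST1, where 10.5% of all genes did so. They lay above in 1 of the 31 genes, DED81, where 7.05% did. MST1, the threonyl enzyme, read 8.64 and 8.65 in swi4 and 8.66 to 8.87 elsewhere, so its distance was small (−0.15 against wt, interval −0.39 to 0.09). The median change of the mitochondrial genes in swi4 was −0.14 and that of the cytosolic genes −0.03, beside −0.10 for all genes. After median centring these were −0.04 and 0.07. DIA4 had a change of −0.20, which was −0.42 without wt replicate 1 (adjusted p = 0.0347) and 0.01 without wt replicate 2 (adjusted p = 0.949), so the call and the direction rested on which wt array was kept.

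In dot1 0 of 31 genes were called against wt, where 1.12% of all genes were called higher and 1.34% lower. At an unadjusted p under 0.05 limma also gave 0 of 31. The lowest changes were those of GLN4 (−0.28, interval −0.71 to 0.15) and ALA1 (−0.24), and the highest that of HTS1 (0.09). GLN4 read 11.33 and 11.67 in dot1 and 11.54 and 12.02 in wt, so the groups overlapped. In no synthetase gene did both dot1 arrays lie above the other 6 arrays (2.94% of all genes) or below them (4.24%). The mutants dot1 and swi4 did not differ in any synthetase gene at the threshold (0 of 31, with 1.01% of all genes called in either direction). The largest differences between them, swi4 minus dot1, were −0.30 for MSR1 and 0.18 for ISM1.

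Both wt arrays lay above all mutant arrays in SLM5 and WRS1, 2 of 31 genes (13.3% of all genes), and below them in 0 (7.18%). WRS1 read 12.08 and 12.18 in wt and 11.94 to 12.04 in the mutants.

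The cytosolic genes differed between replicate arrays in a shared direction. Replicate 2 was above replicate 1 in 17 of 18 cytosolic genes for wt, 15 for dot1, 18 for swi4 and 17 for ard1, by a median of 0.23, 0.18, 0.06 and 0.14. Over all genes replicate 2 was above in 69.2%, 53.4%, 50% and 58.9%, by a median of 0.14, 0.02, 0.00 and 0.03. Among the 13 mitochondrial genes the counts were 12, 6, 7 and 9. GLN4 in wt, at 11.54 and 12.02, had the widest such gap of the cytosolic genes, and TYS1 had the widest in swi4 (0.16) and ard1 (0.21). The errors of the cytosolic genes are therefore not independent of each other. Whether same-numbered arrays share a batch is not stated in the labels.

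**Figure D5:**
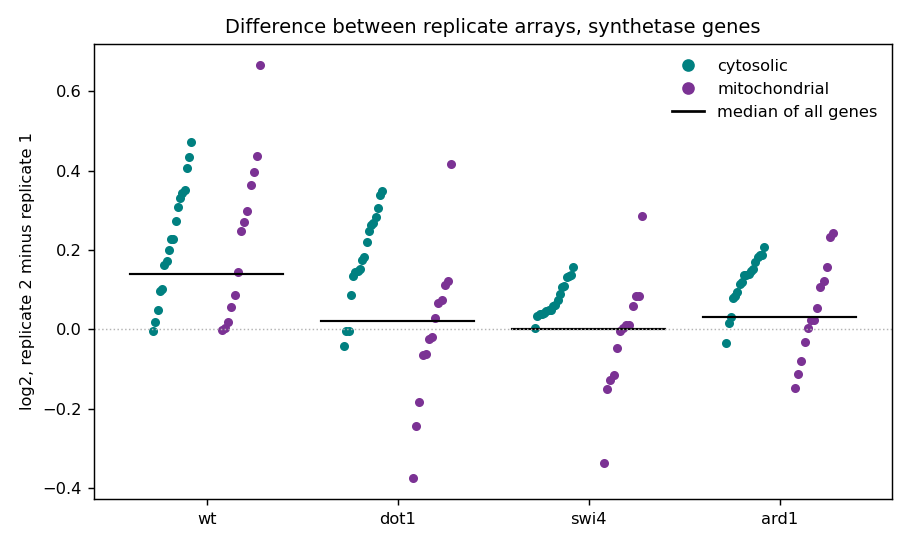
Log2 difference between replicate 2 and replicate 1 (y axis) in each strain for every cytosolic and mitochondrial synthetase gene (points, sorted), with the median over all genes as a black line. Nearly all cytosolic points lie above 0 in the 4 strains, and the mitochondrial points spread to both sides of 0 in dot1, swi4 and ard1.

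Other genes of tRNA charging and translation were examined from fixed lists, made with earlier results of these data known. Of 11 further charging genes 10 were measured, among them the arginyl and prolyl synthetases YDR341C and YHR020W, the second glycyl gene GRS2, ARC1, and PET112, HER2 and GTF1, which make mitochondrial glutaminyl-tRNA from a mischarged precursor. None of the 10 was called against wt in any mutant (0 of 10 in each), with medians of 0.00, 0.03 and 0.03 in dot1, swi4 and ard1. In the same order, 1.12%, 5.16% and 6.26% of all genes were called higher and 1.34%, 7.01% and 12.2% lower. AIM10, a relative of prolyl-tRNA synthetase with a mitochondrial product, is named here after its values were seen. It read 8.80 and 8.84 in ard1, 8.30 and 8.57 in wt, and 8.41 and 8.21 in swi4, and it was higher in ard1 than in swi4 (0.51 ± 0.13, adjusted p = 0.0451). Its change of 0.39 ± 0.13 against wt did not pass (adjusted p = 0.0922).

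Of 8 mitochondrial translation factor genes, 2 fell in swi4 against wt and 1 in ard1, where 7.01% and 12.2% of all genes were called lower. In swi4 these were RRF1, the ribosome recycling factor, which read 7.38 and 7.34 against 7.89 and 8.13 in wt (−0.65 ± 0.11, adjusted p = 0.0172), and TUF1, the mitochondrial elongation factor Tu (−0.32 ± 0.08, adjusted p = 0.0491). All 8 changes were negative in swi4, with a median of −0.21, beside −0.10 over all genes, of which 3411 of 5449 were negative. The smallest of the 8 was −0.03, less than that shift of all genes, so not every sign is independent of the scaling. In ard1 MEF2, which acts with Rrf1 in recycling mitochondrial ribosomes, fell by 0.86 ± 0.12 (adjusted p = 0.00630), from 7.86 and 8.05 in wt to 7.03 and 7.18. The other 7 had positive changes in ard1, none past the threshold, and the median of the 8 was 0.19. Of 11 measured cytosolic elongation and termination factor genes 0 were called in any mutant against wt. The shares of all genes called were 1.12%, 5.16% and 6.26% higher and 1.34%, 7.01% and 12.2% lower in dot1, swi4 and ard1. The medians of the 11 genes were −0.09, −0.08 and −0.09 in the same order.

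Of 43 tRNA modification and processing genes, 0 were called in dot1 against wt, where 1.12% of all genes were called higher and 1.34% lower. In swi4 1 fell and in ard1 3 rose, where 7.01% of all genes were called lower and 6.26% higher. The fall was that of NCL1, a tRNA cytosine methyltransferase gene (−0.67 ± 0.14, adjusted p = 0.0299). The rises were those of POP1 (0.74 ± 0.17, adjusted p = 0.0300) and RPP1 (0.36 ± 0.09), which encode subunits of RNase P, and of TAD3 (0.45 ± 0.11), a subunit of the wobble adenosine deaminase. RPM2 had the lowest change of the list in ard1, −0.81, without passing. It read 7.49 and 7.89 in ard1 and 8.16 and 8.85 in wt. The medians were −0.48 in dot1, −0.27 in swi4 and 0.07 in ard1, beside −0.07, −0.03 and 0.06 for the cytosolic synthetases. Of 50 ribosome biogenesis genes 2, 6 and 2 fell, where 1.34%, 7.01% and 12.2% of all genes were called lower, with medians of −0.74, −0.63 and −0.07. Standard errors reached 0.45 in these genes and 0.36 in the tRNA modification genes, beside 0.18 in the cytosolic synthetases. The part of wt replicate 2 in these medians was not tested. DBP2, an RNA helicase gene, fell by 1.14 ± 0.15 in dot1, by 0.87 in swi4 and by 0.76 in ard1 (adjusted p = 0.021, 0.0164 and 0.017). NSR1, a nucleolin-like gene, fell in dot1 and ard1 (−0.67 and −0.42), and CIC1 and NUG1 fell in swi4 (−0.90 and −0.73).

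Amino acid synthesis genes known to be under Gcn4 were called in all 3 mutants. Of 35 measured, 4 rose in dot1, 9 rose and 1 fell in swi4, and 16 rose in ard1 against wt, with medians of 0.12, 0.21 and 0.40. Over all genes 1.12%, 5.16% and 6.26% were called higher, and 7.01% were called lower in swi4. HIS4, of histidine synthesis, read 11.68 and 11.48 in wt and 13.07 and 13.11 in ard1, a rise of 1.51 ± 0.10 (adjusted p = 0.00132), while HTS1, which charges histidine, changed by 0.37. ARG1 and ARG4, of arginine synthesis, rose by 1.96 ± 0.14 and 1.23 ± 0.10 in ard1 and by 0.88 and 0.81 in dot1. HIS4 had the largest rise of the list in dot1, by 1.23 (adjusted p = 0.00585). In swi4 ARG1 rose by 1.83, HIS4 by 1.19 and LYS9, of lysine synthesis, by 0.78. The 18 cytosolic synthetases had 0 calls in the same comparisons and medians of −0.07, −0.03 and 0.06. GCN4 itself read 13.79 and 13.74 in wt and 13.72 and 13.68 in ard1 (−0.07 ± 0.08, adjusted p = 0.642). Gcn4 protein, which yeast controls at translation, was not measured. Of 12 genes of the general amino acid control, GCN1, an activator of the kinase Gcn2, fell in ard1 (−0.37 ± 0.10, adjusted p = 0.0420), where 12.2% of all genes were called lower. In dot1 and swi4 0 of the 12 were called, where 1.12% and 5.16% of all genes were called higher and 1.34% and 7.01% lower. These lists are not a test of a difference from the synthetases, and all comparisons against wt share its 2 arrays. Calls of genes other than the 31 synthetases were not recomputed gene by gene with arrays left out.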

How the data were processed

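The authors deposited 1 intensity value per probe set and array, by RMA according to the submitters' processing notes, from 1 ug of total RNA per sample per the labels' protocols. No source used here gives the RMA version or the step back to a linear scale. The values ran from 15.24 to 35540, so the deposited intensity values were taken as linear and their log2 computed here. Of 5814 probe sets, 5498 had 1 gene symbol, and 12 symbols were updated through the R64 gene table. For 47 genes with several probe sets the brightest was used, which left 5449 genes. All 8 arrays were used, and their number limits the precision.

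Differences were estimated with limma 3.58.1 (lmFit and eBayes) in R 4.3.3, with 4 group means over the 8 arrays, 4 residual degrees of freedom and 2.73 prior ones. Calls had a two-sided Benjamini-Hochberg adjusted p under 0.05 over all genes of a comparison. An exact permutation test of 2 against 2 arrays cannot go below p = 0.333. The fit was first tested on data with known changes.

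The 31 members and the other lists were chosen with earlier results of these data known. The text names all 31 members, GCN4, ARC1, the deleted genes and, of each other list, up to 3 genes with the lowest adjusted p in each mutant against wt, among those past the threshold. Outside that rule it names further charging genes without a call against wt, AIM10 among them, and RPM2. It also names the alpha-cell markers and genes next to or between called members on the chromosome. Some listed genes were not analysed here. Alternatives were median centring, quantile normalisation, a fit of only 2 groups, leaving out the dimmest 25% of genes, a replicate block, the mean of probe sets, an offset of 32 before log2, a trended robust prior, and leaving out each array. No sequences were used, because none were given with the series.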

Additional observations from a re-analysis of the deposited data

How the results depend on the processing

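The number of synthetase genes called against wt in ard1 was 2, and it was 4 after median centring, 4 after quantile normalisation, 4 with the replicate block and 1 with only the 2 groups fitted (the added genes were HTS1 and MSD1, and the one left was MSW1). In swi4 it was 2 with the replicate block (MSR1 and SLM5) and 0 otherwise, apart from the single arrays left out. In ard1 against swi4 it was 7 with only those groups fitted, instead of 3. With 1 array left out the counts ranged from 0 to 0 in dot1, 0 to 1 in swi4, 0 to 2 in ard1 (all against wt), 0 to 0 in swi4 against dot1, 0 to 1 in ard1 against dot1 and 0 to 0 in ard1 against swi4. The replicate block, a fit in which same-numbered arrays are paired, called 793, 1397 and 1517 genes of all those tested in dot1, swi4 and ard1 against wt, 153 in swi4 against dot1, 1582 in ard1 against dot1 and 1547 in ard1 against swi4, beside 134, 663, 1006, 55, 769 and 832 without it. The differences between replicate 2 and 1 correlated over genes by 0.35 to 0.75 between strains, but the labels do not say that a number marks a shared batch. A fit of only the 2 groups called 0, 176, 405, 16 and 2227 genes in dot1, swi4 and ard1 against wt, swi4 against dot1 and ard1 against swi4. For dot1 against wt the count was 233 after centring, 215 after quantile normalisation, 216 without the dimmest genes and 333 with the trended robust prior. With 1 array left out, the counts over all genes ranged from 4 to 807, 37 to 1435, 205 to 985, 12 to 38, 84 to 518 and 56 to 193 in the order dot1, swi4, ard1 against wt, swi4 and ard1 against dot1, ard1 against swi4. Median centring gave 426 genes higher and 299 lower in swi4 against wt, instead of 281 and 382, 511 and 508 in ard1 against wt, instead of 341 and 665, and 496 and 473 in ard1 against dot1, instead of 309 and 460. The change of DIA4 in swi4 was −0.42 and past the threshold without wt replicate 1 and turned to 0.01 without wt replicate 2. Under the replicate block SLM5 and MSR1 passed in swi4 against wt (adjusted p = 0.0422 and 0.0255), HTS1 and MSD1 in ard1 against wt (0.0141 and 0.0298), HTS1 in ard1 against dot1 (0.0372) and MSF1 in ard1 against swi4 (0.0346). Of the 8 calls of single synthetase genes none changed sign in any alternative, and among the 178 gene and comparison pairs without a call, 93 changed sign in some alternative, with changes of at most 0.20 in size. MSD1 lies among the dimmest genes and has no value under that filter.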
